A study of Mus musculus with 3 samples.

Results

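The genes described here are 45 cell cycle and DNA replication genes measured in the enamel organ of the mouse incisor. They were chosen by name, with earlier results of these data known, and grouped by role. The groups were 10 genes of origin licensing and the replicative helicase, 9 of DNA synthesis and 5 G1/S cyclins and their kinase. The others were 3 transcription factors, 2 proliferation markers and 16 genes of mitosis. All 45 were present among 20937 listed genes, and all 45 were among the 18702 genes that had enough reads to be tested. The licensing and DNA synthesis genes together, 19 in all, are called S phase genes below.

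The study asked what loss of the calcium sensor Stim1 does in enamel-forming cells. RNA was sequenced from the enamel organ of 4-week-old mice of 3 genotypes, with 1 library per genotype. Stim1 cKO was Stim1 fl/fl and carried the AmelX-iCre transgene, Stim1 HT was Stim1 fl/wt with the same transgene, and Stim1 Ctrl was Stim1 fl/fl without Cre. Every genotype therefore carried at least 1 floxed Stim1 allele, and Stim1 HT shared the Cre transgene with Stim1 cKO. AmelX-iCre deletes in ameloblasts from their secretory stage onwards, whereas the whole enamel organ was sequenced, and the cell type entry of the labels reads ameloblasts. How many mice entered each library was not given in the sources used here, and no genotype had a replicate against which to check its library.

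Assigned reads numbered 21496136 (Stim1 cKO), 20216507 (Stim1 HT) and 28265960 (Stim1 Ctrl). Wherever 3 values follow each other with no genotype named, they stand in that order. Levels are given as CPM (counts scaled to a library of fixed size) after TMM scaling, and as RPKM, which is CPM per kilobase of exon, where genes are compared with each other. Stim1 itself (chr7:102267806-102437319) read 72.8 CPM (Stim1 cKO), 129 CPM (Stim1 HT) and 186 CPM (Stim1 Ctrl), a log2 fold change of −1.11 for Stim1 cKO against both controls together. At an adjusted p under 0.01 with a fold change over 2, neither edgeR nor DESeq2 called Stim1 lower. It was lowest in Stim1 cKO and highest in Stim1 Ctrl, and was still read in every library. The labelled tissue was checked with 13 enamel epithelium genes, whose summed level was 7385 CPM (Stim1 cKO), 33492 CPM (Stim1 HT) and 25067 CPM (Stim1 Ctrl). Amelx, the main enamel matrix gene, was the most abundant of them at 2065, 20016 and 14088 CPM, so the defining marker was present in every library and lowest in Stim1 cKO. Of the 13 genes, 5 were below both controls in Stim1 cKO and 7 were above both, against 7872 and 8159 of the 18702 tested genes. In bulk tissue, fewer cells of a type and less RNA per cell cannot be told apart, and this holds for every level below.

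A dividing cell first loads the Mcm helicase onto replication origins, then fires those origins and copies its DNA in S phase, and finally separates the chromosomes in mitosis. Genes of G1/S and S phase are classically controlled by E2F factors, while many genes of G2 and mitosis are controlled through the cell cycle homology region together with CCAAT boxes bound by NF-Y, with the MuvB complex, Mybl2 and Foxm1 as partners. In the continuously growing mouse incisor, dividing epithelium lies at the apical end in the cervical loop, and ameloblasts have left the cell cycle by the time they secrete enamel matrix.

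Because members of both phases were lower together in Stim1 cKO, their promoters were read from RefSeq (GRCm38.p6), in windows from 250 bases before to 50 bases after the start of the gene. Windows were found for 35 of the 45 members, and Mcm7 had 2 of them. A gene was counted once, with a match in any of its windows. Mcm4, Gins1, Gins2, Pole, Ccnd1, Ccne2, Ccna2, Foxm1, Aurkb and Tpx2 had none in the table. The letters searched on both strands were the E2F core (TTCCCGC or TTGGCGC or TTCGCGC or TTGCCGC), the cell cycle homology region (TTTGAA) and CCAAT. E2F matches on opposite strands can overlap each other, and an E2F core that begins TTGG can share those bases with a CCAAT read on the other strand. Mcm5 is shown because it had the largest log2 fold change of the members, and Mcm6 because it is the helicase subunit with the most E2F matches. The windows shown are chr8:75109319-75109508 on the plus strand for Mcm5 and chr1:128359706-128359825 on the minus strand for Mcm6. Capitals mark E2F cores and CCAAT boxes on either strand.
Mcm5: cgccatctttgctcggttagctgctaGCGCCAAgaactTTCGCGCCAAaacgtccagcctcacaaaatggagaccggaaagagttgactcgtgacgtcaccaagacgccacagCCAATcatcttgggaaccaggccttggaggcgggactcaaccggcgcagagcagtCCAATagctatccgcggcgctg
Mcm6: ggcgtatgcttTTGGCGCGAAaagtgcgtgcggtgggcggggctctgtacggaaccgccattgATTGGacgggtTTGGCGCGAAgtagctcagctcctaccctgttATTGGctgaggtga

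The mitosis genes are shown by Aurka, with 30 bases around its match at chr2:172370521-172370550, by Cdc20 at chr4:118437344-118437463 and by Cdk1 at chr10:69352913-69353102, all on the minus strand. Cdc20 holds the homology region and CCAAT, as most mitosis windows do, and Cdk1 is the mitosis window that holds all 3 kinds of match. Capitals mark the cell cycle homology region in all of them, CCAAT on either strand in Cdc20 and Cdk1, and E2F cores in Cdk1.
Aurka: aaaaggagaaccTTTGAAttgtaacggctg
Cdc20: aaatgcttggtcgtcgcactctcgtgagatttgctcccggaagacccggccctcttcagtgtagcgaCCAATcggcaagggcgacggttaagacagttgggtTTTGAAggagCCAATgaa
Cdk1: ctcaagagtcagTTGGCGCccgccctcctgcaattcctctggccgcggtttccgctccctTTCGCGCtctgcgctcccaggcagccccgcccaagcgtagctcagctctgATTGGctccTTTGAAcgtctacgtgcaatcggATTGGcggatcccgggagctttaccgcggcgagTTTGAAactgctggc

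An E2F core was found in 11 of the 15 S phase genes with a window (73.3%) and in 2 of the 14 mitosis genes with a window (14.3%), Ccnb1 and Cdk1. The same letters were found in 10.9% of 27025 genes of the RefSeq table and in 17.4% of the 13259 tested genes with a window. The cell cycle homology region ran the other way, with 10 of 14 mitosis genes (71.4%) and 1 of 15 S phase genes, Mcm2, against 20.2% of all genes of that table and 14.9% of tested genes. CCAAT was in 13 of 14 mitosis genes (92.9%) and in 10 of 15 S phase genes (66.7%), against 41.1% of that table. All 10 mitosis genes with a cell cycle homology region also held CCAAT, a combination found in 7.97% of the table's genes. In the wider lists described below the split was weaker for both motifs. An E2F core was in 19 of 32 further replication genes with a window (59.4%) and in 12 of 43 further mitosis genes (27.9%), and a cell cycle homology region in 6 (18.8%) and 29 (67.4%) of them. The 15 members with an E2F core had a median log2 fold change of −1.49 in Stim1 cKO, and the 20 members with a window and no such core had −1.19. The medians were −1.19 for the 13 members with a cell cycle homology region and −1.36 for the 22 members with a window and none. A match describes the letters of a window, and binding was not measured.

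**Figure D1:**
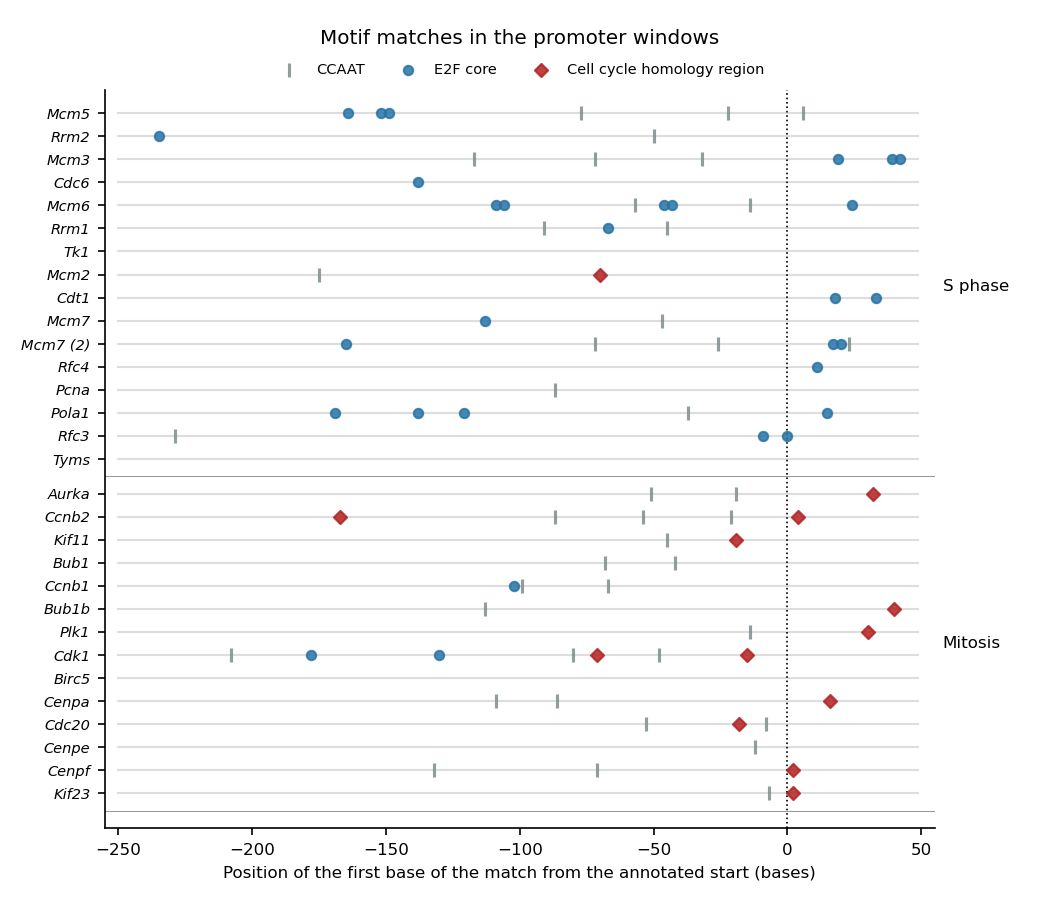
Positions of E2F core, cell cycle homology region and CCAAT matches, in bases from the gene start (horizontal axis), with 1 line per window of the S phase members and then of the mitosis members. Most E2F matches lie in S phase windows, and most cell cycle homology regions lie near the start of mitosis genes.

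Of the 45 members, 43 were below both controls in Stim1 cKO, against 42.1% of all tested genes. Because the members were chosen with earlier results of these data known, this share and those below describe the list and do not test it. In 29 members Stim1 cKO was more than 2-fold below both controls, against 8.23% of tested genes. The median log2 fold change of the members was −1.33 (quartiles −1.62 and −0.95, range −2.36 to −0.06), and that of all tested genes was −0.01. The remaining members, Gins1 and Ccnd1, lay between the controls, and none was above both. Summed over the members, the level was 1013 CPM (Stim1 cKO), 2022 CPM (Stim1 HT) and 2499.8 CPM (Stim1 Ctrl). As a share of assigned reads this was 0.114% for Stim1 cKO (95% interval 0.113 to 0.115, counting error only), 0.197% for Stim1 HT (0.195 to 0.199) and 0.228% for Stim1 Ctrl (0.226 to 0.229). The intervals did not overlap, and the share was lowest in Stim1 cKO and highest in Stim1 Ctrl.

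No member passed an adjusted p under 0.01 with a fold change over 2 in edgeR's quasi-likelihood test (Benjamini-Hochberg, over all tested genes), and neither did any gene lower in Stim1 cKO (0%). The same rule called 14 genes higher in Stim1 cKO (0.0749% of those tested), none of them a member. With no filter on low counts, edgeR called 5 members lower (Aurkb, Mcm3, Mcm5, Mcm6 and Rrm2) among 220 genes called lower. At an unadjusted p under 0.05, 35 of the 45 members were lower in Stim1 cKO, against 13.4% of tested genes, and none was higher, against 3460 of 18702 tested genes. By the same thresholds in DESeq2, 20 members were called lower, against 4.71% of tested genes. Both tests take their error from how far the controls, themselves of different genotypes, lie apart, on 1 residual degree of freedom. Both also share this error across genes, so it is not the gap of each gene alone. The lowest adjusted p among the members in edgeR's quasi-likelihood test was 0.0226, for Mcm5. Exons of 13 members overlap exons of another gene, and the strand used in counting was not given in the sources used here, so their levels are less certain. Among the other 32 members, 31 were below both controls, with a median log2 fold change of −1.39.

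**Figure D2:**
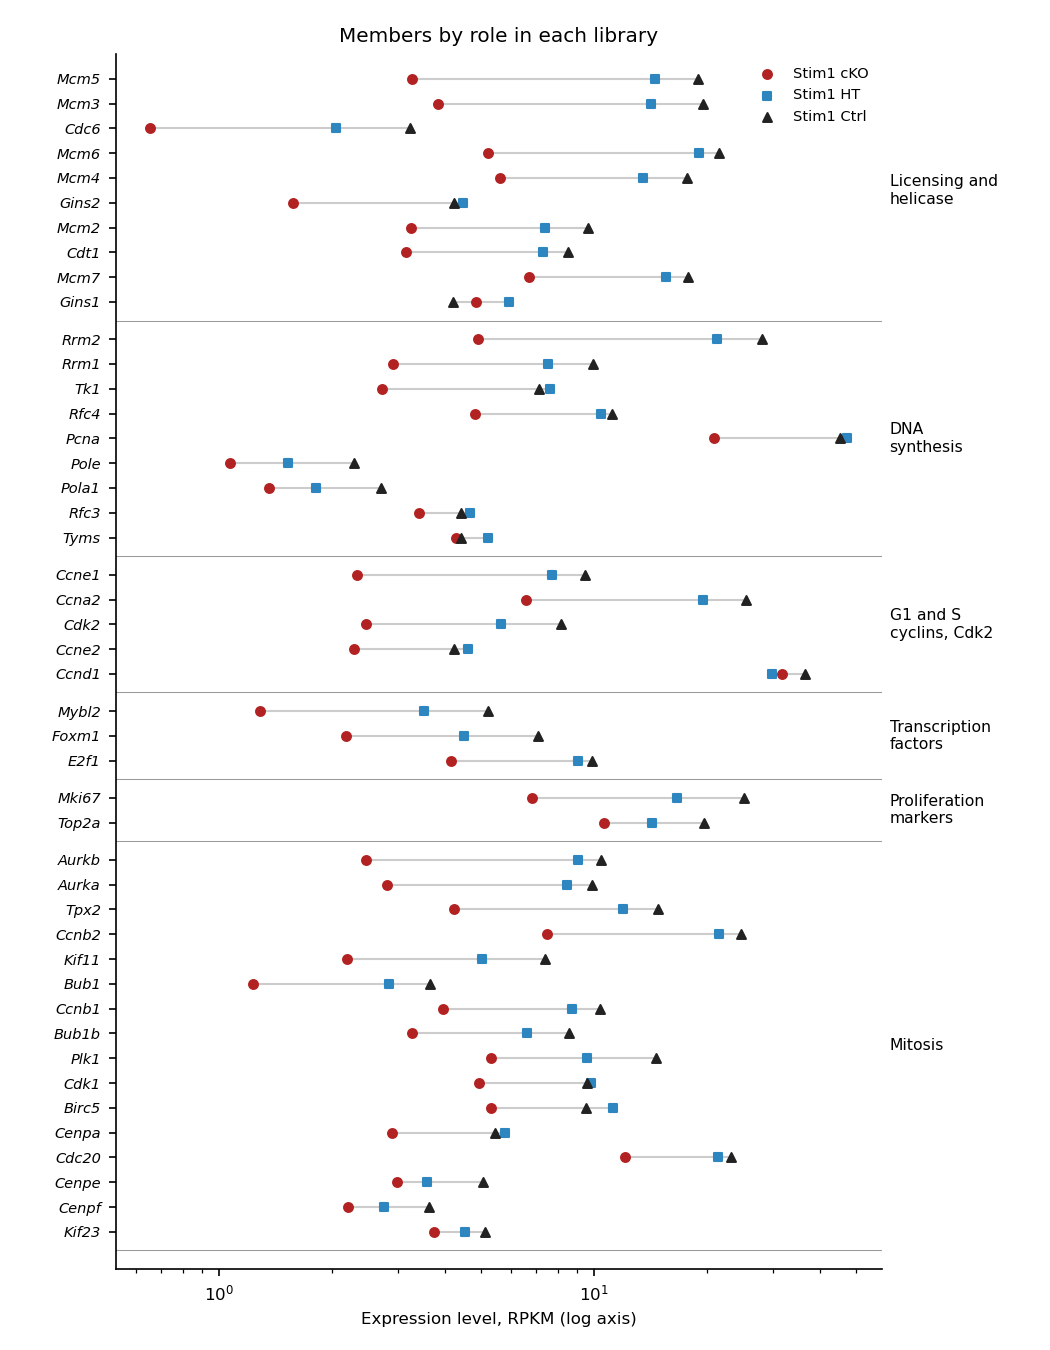
Level of each of the 45 members in RPKM (logarithmic axis), grouped by role, in Stim1 cKO (red circles), Stim1 HT (blue squares) and Stim1 Ctrl (black triangles), 1 library each. The red circles lie to the low side of both controls in nearly every gene.

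The licensing genes had a median log2 fold change of −1.47, with 9 of 10 more than 2-fold below both controls (8.23% of tested genes) and 6 of 10 called lower by DESeq2 (4.71% of tested genes). Their summed level was 151 CPM (Stim1 cKO), 429.6 CPM (Stim1 HT) and 526 CPM (Stim1 Ctrl). Mcm5, a subunit of the Mcm2 to Mcm7 helicase whose promoter is printed above, read 13.1 CPM (Stim1 cKO), 58.1 CPM (Stim1 HT) and 75.7 CPM (Stim1 Ctrl). Both controls lay close together and Stim1 cKO far below them, with a log2 fold change of −2.36 (DESeq2 standard error 0.40), the lowest of all members. Mcm3, another subunit of the ring, read 14.4, 53.2 and 73.3 CPM in the same order (log2 fold change −2.13; adjusted p = 0.0282 in edgeR's quasi-likelihood test). Mcm6, also a subunit and the licensing gene with the highest mean CPM, read 24.2, 88.9 and 101 CPM (−1.97). For each of these 3 subunits the Stim1 cKO library was lowest and Stim1 Ctrl highest. The other subunits differed less, with log2 fold changes of −1.47 for Mcm4, −1.39 for Mcm2 and −1.32 for Mcm7. All 6 subunits were below Stim1 HT, which was below Stim1 Ctrl (25.4% of tested genes), and all 6 were called lower by DESeq2 (4.71%). Their median log2 fold change was −1.72 and their summed level was 124, 369 and 459 CPM.

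The loading factors stood at lower levels. Cdc6, which loads the helicase onto origins, read 3.43 CPM (Stim1 cKO), 10.7 CPM (Stim1 HT) and 16.9 CPM (Stim1 Ctrl) (log2 fold change −2.01, DESeq2 standard error 0.63). Cdt1, its partner in loading, read 9.91, 22.9 and 26.8 CPM (−1.33). Both were lowest in Stim1 cKO and highest in Stim1 Ctrl. The GINS complex joins the helicase when origins fire, and its subunits here parted. Gins2 read 6.44 CPM (Stim1 cKO), 18.3 CPM (Stim1 HT) and 17.3 CPM (Stim1 Ctrl) (−1.46), below both controls. Gins1 read 7.35, 8.99 and 6.37 CPM, between the controls, with a log2 fold change of −0.06 that turned positive (0.19) under scaling by library size alone. In RPKM the licensing genes of Stim1 Ctrl ran from 3.23 for Cdc6 to 21.6 for Mcm6.

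The DNA synthesis genes had a median log2 fold change of −1.15 and all 9 were below both controls (42.1% of tested genes), 5 of them more than 2-fold (8.23%). Their summed level was 179 CPM (Stim1 cKO), 392 CPM (Stim1 HT) and 442 CPM (Stim1 Ctrl). Rrm2, the small subunit of ribonucleotide reductase, read 13.6 CPM (Stim1 cKO), 58.9 CPM (Stim1 HT) and 77.6 CPM (Stim1 Ctrl), a log2 fold change of −2.33 (adjusted p = 0.0234 in edgeR's quasi-likelihood test). Stim1 cKO was far below both controls, which lay close together. Rrm1, the large subunit, differed less, at 31.9, 82.7 and 109 CPM (log2 fold change −1.59). Tk1, the thymidine kinase of the salvage pathway, read 14.1, 39.5 and 37.1 CPM (−1.44). Tyms, which makes thymidylate by the other route, read 26.1 CPM (Stim1 cKO), 31.7 CPM (Stim1 HT) and 26.9 CPM (Stim1 Ctrl), and its log2 fold change of −0.17 became 0.09 under library size scaling. Tk1 thus stood clear of both controls, whereas Tyms in Stim1 cKO was nearly level with Stim1 Ctrl.

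At the fork, Pcna, the sliding clamp, read 50.1 CPM (Stim1 cKO), 113 CPM (Stim1 HT) and 109 CPM (Stim1 Ctrl) (log2 fold change −1.15). The controls were nearly level and Stim1 cKO was below both. Pcna also had the highest RPKM of the S phase genes in every library, at 20.9, 47.2 and 45.3. Rfc4, a subunit of the clamp loader, read 7.39, 16.0 and 17.1 CPM (−1.16), while Rfc3 of the same complex read 12.3, 16.9 and 16.0 CPM (−0.41). The catalytic subunits of DNA polymerases alpha and epsilon were also nearer their controls. Pola1 read 12.0 CPM (Stim1 cKO), 15.9 CPM (Stim1 HT) and 23.8 CPM (Stim1 Ctrl) (−0.73), and Pole read 11.9, 17.1 and 25.6 CPM (−0.84). For both polymerases Stim1 HT lay nearer to Stim1 cKO than to Stim1 Ctrl.

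Among the G1/S cyclins and their kinase, 4 of 5 were below both controls (42.1% of tested genes) and the median log2 fold change was −1.49. Ccne1, cyclin E1, read 6.20 CPM (Stim1 cKO), 20.6 CPM (Stim1 HT) and 25.1 CPM (Stim1 Ctrl) (log2 fold change −1.88). Ccna2, cyclin A2, which acts from S phase into G2, read 26.8, 79.6 and 104 CPM (−1.77). Both were lowest in Stim1 cKO by a wide margin. Cdk2, the kinase that these cyclins activate, read 15.3 CPM (Stim1 cKO), 35.0 CPM (Stim1 HT) and 50.8 CPM (Stim1 Ctrl) (−1.49). Ccne2, cyclin E2, read 8.01, 16.1 and 14.8 CPM (−0.95). Ccnd1, the mitogen-responsive cyclin D1, stood apart from these at 149 CPM (Stim1 cKO), 140.4 CPM (Stim1 HT) and 172 CPM (Stim1 Ctrl), and its log2 fold change of −0.07 became 0.20 under library size scaling. Ccnd1 lay between the controls. It made up most of the list's summed level in Stim1 cKO, 205 CPM, where the controls summed to 292 CPM (Stim1 HT) and 366 CPM (Stim1 Ctrl).

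All 3 transcription factors were more than 2-fold below both controls (8.23% of tested genes), with Stim1 HT between the other genotypes (25.4%). Mybl2, the partner of MuvB in S phase and G2, read 5.95 CPM (Stim1 cKO), 16.3 CPM (Stim1 HT) and 24.2 CPM (Stim1 Ctrl) (log2 fold change −1.77). Foxm1, which acts on late cell cycle genes, read 12.6, 25.9 and 40.8 CPM (−1.41). E2f1, an activator of G1/S genes, read 13.1, 28.6 and 31.0 CPM (−1.19). Stim1 HT was close to Stim1 Ctrl for E2f1 and farther from it for Foxm1 and Mybl2. Their summed level was 31.6 CPM (Stim1 cKO), 70.9 CPM (Stim1 HT) and 96.0 CPM (Stim1 Ctrl).

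The proliferation markers differed in size. Mki67, which coats mitotic chromosomes and had the highest mean CPM of the members, read 68.6 CPM (Stim1 cKO), 167 CPM (Stim1 HT) and 252 CPM (Stim1 Ctrl) (log2 fold change −1.61; adjusted p = 0.0619 in edgeR's quasi-likelihood test). Top2a, the topoisomerase that untangles replicated DNA, read 95.7, 128 and 177 CPM (−0.68). Both were ordered with Stim1 HT between the other libraries, and only Mki67 was more than 2-fold below both controls. In RPKM, Mki67 read 6.82, 16.6 and 25.0 and Top2a read 10.6, 14.2 and 19.7. At the exon lengths used, which join all annotated exons of a gene, the order of both genes by level was reversed between Stim1 cKO and the controls.

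The mitosis genes had a median log2 fold change of −1.21 (range −1.98 to −0.37). All 16 were below both controls (42.1% of tested genes), 8 of them more than 2-fold (8.23%). At an unadjusted p under 0.05, 13 were lower (13.4% of tested genes), and DESeq2 called 5 lower (4.71%). Aurkb, the kinase of the chromosomal passenger complex, read 7.27 CPM (Stim1 cKO), 26.7 CPM (Stim1 HT) and 30.6 CPM (Stim1 Ctrl) (log2 fold change −1.98, DESeq2 standard error 0.45). Aurka, the spindle pole kinase, read 7.11, 21.4 and 24.9 CPM (−1.70). Tpx2, which activates Aurka on the spindle, read 19.8, 55.6 and 69.1 CPM (−1.65). All 3 were lowest in Stim1 cKO, with the controls close together. Birc5, a passenger complex partner of Aurkb, was less far down at 18.1, 38.1 and 32.4 CPM (−0.97).

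Both mitotic cyclins lay below the list's median. Ccnb2 read 11.5 CPM (Stim1 cKO), 32.8 CPM (Stim1 HT) and 37.6 CPM (Stim1 Ctrl) (log2 fold change −1.62). Ccnb1 read 16.6, 36.8 and 43.8 CPM (−1.27). Cdk1, the kinase they activate, read 24.3, 48.4 and 47.2 CPM (−0.97), with the controls level and Stim1 cKO below both. Cdc20, which activates the anaphase-promoting complex, read 22.6, 40.1 and 43.3 CPM (−0.89). Plk1, a kinase of mitotic entry and spindle assembly, read 11.6 CPM (Stim1 cKO), 21.1 CPM (Stim1 HT) and 32.2 CPM (Stim1 Ctrl) (−1.19). For Plk1, unlike Cdk1 and Cdc20, the controls were well apart.

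The spindle checkpoint kinase Bub1 read 5.37 CPM (Stim1 cKO), 12.4 CPM (Stim1 HT) and 15.9 CPM (Stim1 Ctrl) (log2 fold change −1.40). Its relative Bub1b read 14.0, 28.4 and 36.7 CPM (−1.22). Kif11, the motor that keeps the spindle bipolar, read 16.4, 37.5 and 55.1 CPM (−1.50). These 3 genes were all more than 2-fold below both controls. Cenpa, the centromeric histone H3 variant, read 16.9, 34.0 and 31.9 CPM (−0.96). The smallest differences in the list belonged to the kinetochore genes Cenpe and Cenpf and to Kif23, a motor of the central spindle. Cenpe read 25.6 CPM (Stim1 cKO), 30.9 CPM (Stim1 HT) and 43.4 CPM (Stim1 Ctrl) (−0.54), and Cenpf read 34.1, 42.5 and 56.0 CPM (−0.53). Kif23 read 29.5, 35.8 and 40.4 CPM (−0.37). In these 3 genes the Stim1 cKO library was below both controls, and Stim1 HT lay between the other libraries.

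The difference between S phase and mitosis genes in Stim1 cKO varied in size with the control and in sign with the genes taken. The median log2 fold change was −1.39 over the 19 S phase genes and −1.21 over the 16 mitosis genes, a difference of −0.18. Against Stim1 HT alone the difference was −0.16, and against Stim1 Ctrl alone it was −0.03. Summed over S phase genes, Stim1 cKO stood at 0.402 of Stim1 HT and 0.342 of Stim1 Ctrl. Summed over mitosis genes it stood at 0.518 of Stim1 HT and 0.439 of Stim1 Ctrl. Between the controls both sums had nearly the same ratio, Stim1 HT standing at 0.849 of Stim1 Ctrl for S phase and 0.847 for mitosis. Of the counts of both lists, S phase genes held 54.1% for Stim1 cKO (95% interval 53.3 to 54.9, counting error only), 60.2% for Stim1 HT (59.7 to 60.8) and 60.2% for Stim1 Ctrl (59.7 to 60.7). The share was level between the controls and lower in Stim1 cKO. Per length the medians were close, at 3.41 RPKM for S phase genes and 3.50 RPKM for mitosis genes in Stim1 cKO. They were 7.51 and 8.58 RPKM in Stim1 HT, and 9.61 and 9.54 RPKM in Stim1 Ctrl.

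Without Mcm2 to Mcm7, whose own median was −1.72 and whose removal was chosen after the values were seen, the median of the remaining S phase genes was −1.16 and the difference from mitosis turned to 0.05. The S phase share of counts without them was 42.4% for Stim1 cKO (41.5 to 43.3), 45.5% for Stim1 HT (44.8 to 46.2) and 44.3% for Stim1 Ctrl (43.7 to 44.9), so it was still lowest in Stim1 cKO, by a smaller margin. Wider lists of the same processes ran in the other order. The 38 further replication genes had a median log2 fold change of −0.52, with 32 below both controls and 8 more than 2-fold, against 42.1% and 8.23% of tested genes. The 51 further mitosis genes had a median of −0.82, with 44 below both and 12 more than 2-fold, beside the same shares. Joined to the members, the medians were −0.84 for 57 S phase genes and −0.96 for 67 mitosis genes. Which of the phases stood lower thus depended on the genes taken, and both were below the median of all tested genes in every list.

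**Figure D3:**
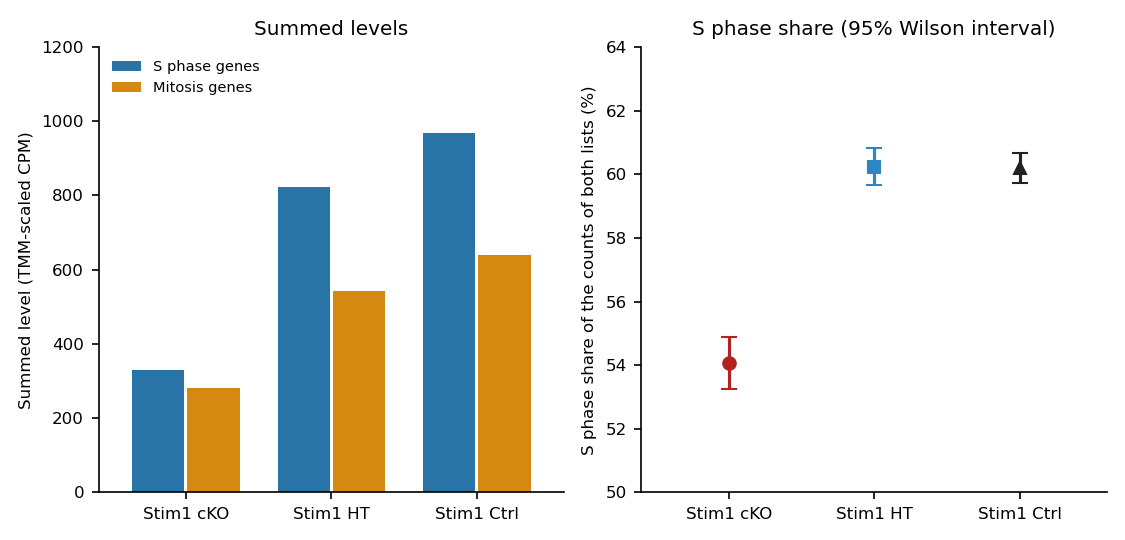
Left, summed level (CPM) of the S phase and mitosis lists in each library; right, percent of the counts of both lists that belong to S phase genes, with 95% intervals for counting error, on an axis that starts at 50. The S phase share is level in both controls and lower in Stim1 cKO.

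No further replication or mitosis gene passed edgeR's test, though of those named here Uhrf1 and Nusap1 did (lower in Stim1 cKO) when no filter on low counts was applied. At an unadjusted p under 0.05, 14 of the 38 replication genes and 24 of the 51 mitosis genes were lower in Stim1 cKO, against 13.4% of tested genes. DESeq2 called 3 of the 38 and 6 of the 51 lower, against 4.71% of tested genes. The replication genes farthest down were Uhrf1, Fen1 and Chaf1b. Uhrf1, which carries DNA methylation through replication, read 16.7 CPM (Stim1 cKO), 55.2 CPM (Stim1 HT) and 70.9 CPM (Stim1 Ctrl) (log2 fold change −1.91). Fen1, the flap nuclease of Okazaki fragments, read 10.5, 30.7 and 35.1 CPM (−1.64), and Chaf1b, a histone chaperone subunit, read 6.78, 20.7 and 21.5 CPM (−1.64). At the other end, Orc4 of the origin recognition complex read 35.4, 28.2 and 22.1 CPM (0.50), above both controls. Dna2 (0.15) and Rpa3 (0.10) lay near 0, and Rpa3 turned to −0.31 without Stim1 Ctrl. Among mitosis genes, Dlgap5, a spindle protein, read 4.92 CPM (Stim1 cKO), 14.6 CPM (Stim1 HT) and 21.6 CPM (Stim1 Ctrl) (−1.88). Kif4, a chromosome-bound motor, read 7.06, 21.4 and 27.1 CPM (−1.78), and Nusap1, which binds spindle microtubules, read 13.4, 39.5 and 49.0 CPM (−1.72). Smc4, a condensin subunit, read 188, 136 and 147 CPM (0.41), above both controls, as were Pttg1, the securin (0.34), and Cdca2 (0.28).

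**Figure D4:**
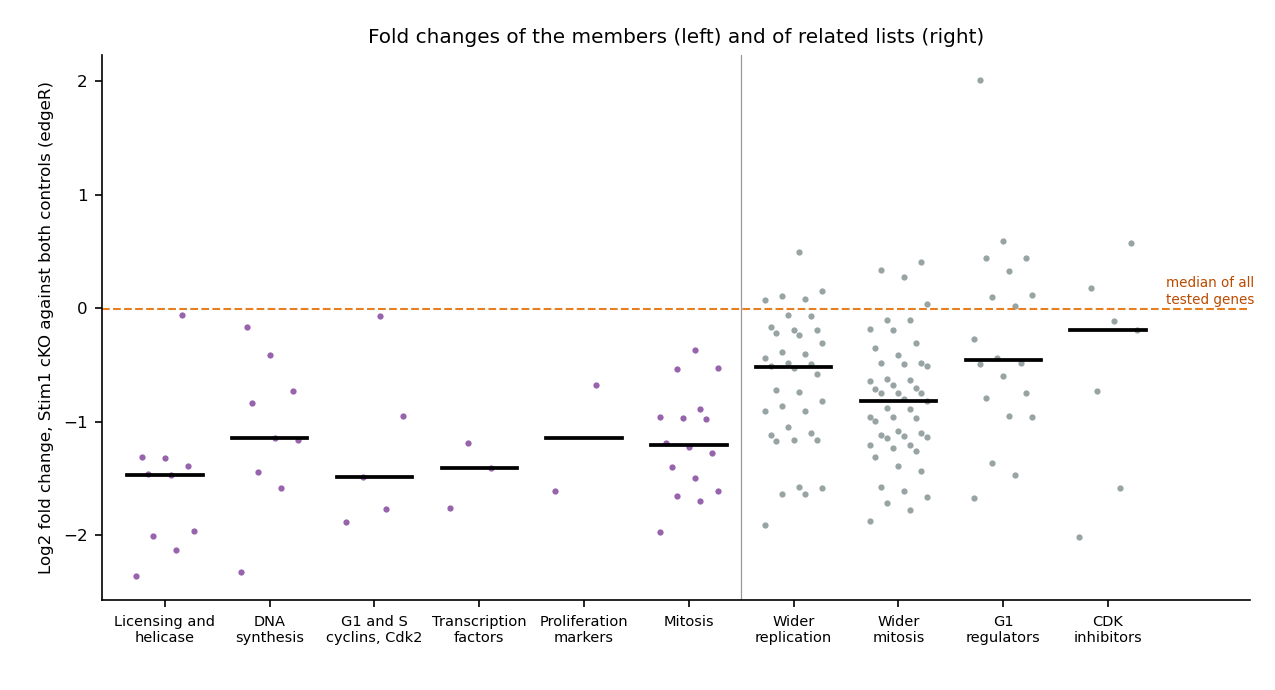
Log2 fold change of Stim1 cKO against both controls, 1 point per gene, for the member lists by role (purple, left) and for the wider lists (grey, right), with a black line at each median and an orange dashed line at the median of all tested genes. The member lists lie lower than the wider lists.

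Between the controls the members were close. None of the 45 had Stim1 HT and Stim1 Ctrl more than 2-fold apart, against 13.5% of tested genes. Every member had at least 83 counts in each library, whereas tested genes went down to 1, so these shares compare genes of unlike abundance. Stim1 HT was below Stim1 Ctrl in 35 members, against 49.7% of tested genes, and above it in 10. In 34 members the order was Stim1 cKO below Stim1 HT below Stim1 Ctrl, against 25.4% of tested genes. The median log2 ratio of the members was −1.19 for Stim1 cKO over Stim1 HT and −1.42 for Stim1 cKO over Stim1 Ctrl, which share the Stim1 cKO library. It was −0.29 for Stim1 HT over Stim1 Ctrl, with a range from −0.66 for Cdc6 to 0.50 for Gins1, and 0.00 over all tested genes.

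Markers of other cells in the tissue also differed between the libraries, and their part in the members' result was not tested. No gene of these lists was at 0 in any library, but neither was any tested gene, whose lowest count was 1. The absence of a 0 is therefore no sign that a cell type was present. Of the 18702 tested genes, 7872 were below both controls and 8159 above both, against which the counts of each list stand. Mesenchyme genes were below both controls in 8 of 8, with summed levels of 35516.5 CPM (Stim1 cKO), 49506.6 CPM (Stim1 HT) and 76626.2 CPM (Stim1 Ctrl) and Col1a1 the most abundant. Perinatal muscle genes were below both in 6 of 6, at 477, 6155 and 11164 CPM, most of it Myh8. Macrophage genes were below both in 5 of 5, at 103, 223 and 235 CPM, with Csf1r the most abundant. Erythroid genes were below both in 7 of 8, at 1045, 2271 and 1559.8 CPM, with Hbb-bs the most abundant. Each of these lists was lowest in Stim1 cKO, as the members were. Cartilage genes were below both in 3 of 6 and above both in 2, at 206, 543 and 729.9 CPM, with Col2a1 the most abundant.

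Dental epithelial progenitor genes, the list nearest to dividing enamel epithelium, were below both controls in 5 of 7 and above both in 1. Their summed level was 1376 CPM (Stim1 cKO), 1623 CPM (Stim1 HT) and 2413 CPM (Stim1 Ctrl), with Igfbp5 the most abundant. Sox2, a marker of epithelial stem cells, read 67.0, 29.8 and 11.9 CPM, highest in Stim1 cKO. Shh, a signal of the dental epithelium, read 3.68, 23.3 and 25.4 CPM, lowest there. Bone and odontoblast genes were below both in 4 of 7 and above both in 2, at 2551, 2723 and 2903 CPM, with Ibsp the most abundant. These sums were nearly level across the libraries.

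Further lists were higher in sum in Stim1 cKO. Granulocyte genes stood at 1448 CPM (Stim1 cKO), 415 CPM (Stim1 HT) and 185 CPM (Stim1 Ctrl). This sum was carried by Ltf, the most abundant at 1441, 358 and 112 CPM. The other 5 of the 6 went the other way, each more than 2-fold below both controls (8.23% of tested genes). All 5 were called lower by DESeq2 (4.71% of tested genes), and the list's median log2 fold change was −3.30. B cell and plasma cell genes stood at 122, 15.1 and 4.59 CPM, with Igha the most abundant. Of the 6 that were tested, 4 were above both and 1 below both, and Rag1, with too few reads to be tested, was also below both. Only 2 of the 6 were more than 2-fold above both controls (3580 of 18702 tested genes), and 1 was more than 2-fold below both (8.23%). Their log2 fold changes ran from −1.90 to 10.0 with a median of 1.49, and counts in the list went down to 1.

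**Figure D5:**
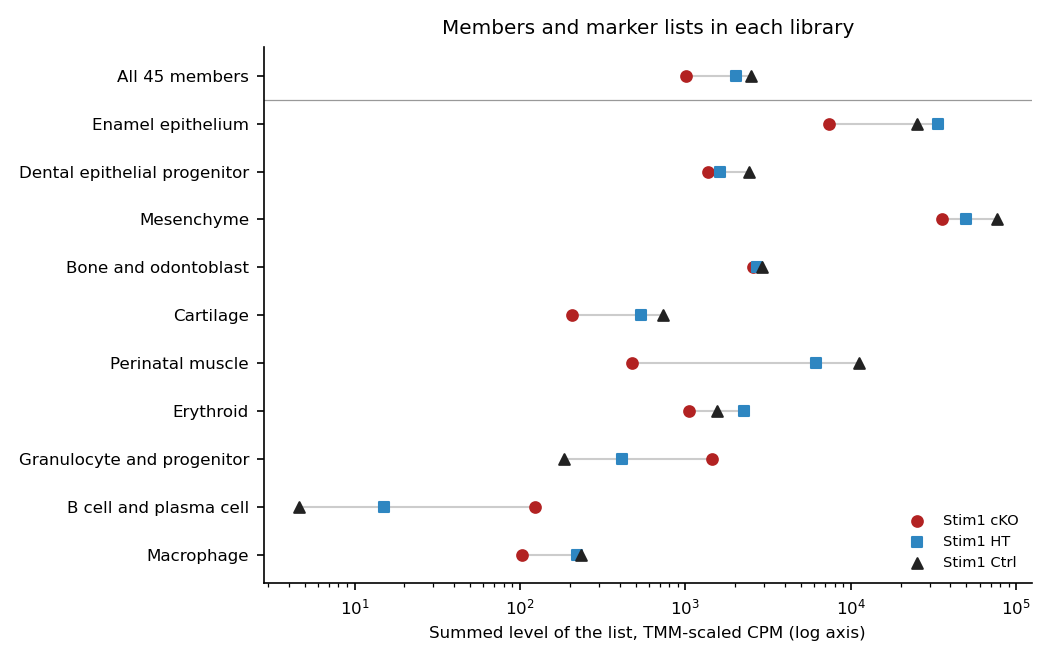
Summed level (CPM, logarithmic axis) of the 45 members and of 10 marker lists in each library, by genotype. Levels of the members, mesenchyme, muscle and macrophage lists are lowest in Stim1 cKO. Those of the granulocyte list (through Ltf alone) and of the B cell list (2 of 6 tested genes more than 2-fold above both controls) are highest there.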

How the data were processed

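The counts per gene deposited by the authors were used, with 1 column per genotype. Reads had been checked with FastQC and aligned with STAR. The versions of these tools, the genome build, annotation, counting tool and strand setting are not given in the sources used here. The methods of the study name a NEBNext directional kit, whereas the labels name a SMARTER kit. Genes were tested with edgeR 4.0.16 (TMM scaling, quasi-likelihood) and again with DESeq2 1.42.0 in R 4.3.3, comparing Stim1 cKO with Stim1 HT and Stim1 Ctrl grouped. Calls needed an adjusted p under 0.01 and a fold change over 2. The p-values rest on 1 residual degree of freedom. Tables were built with Python 3.11.15. The code was tested on simulated data.

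Exon lengths for RPKM and coordinates came from GENCODE M21, which held 20712 of the symbols. The table lists 25 symbols turned into dates, none a member. Wilson 95% intervals cover counting error only, and log ratios were taken from scaled CPM with no floor. Promoters were read from RefSeq tables (GRCm38.p6). The members and lists were chosen with earlier results of these data known. For the wider replication, wider mitosis and G1 regulator lists, the 3 genes at either end were named, among those averaging 50 counts or more. Members were described by role, all CDK inhibitors were named, and of each marker list the most abundant gene was named. The Mcm6, Cdc20 and Cdk1 promoters, further single genes (Ccnd2, Cdk4, Sox2, Shh and Rag1), and the removal of Mcm2 to Mcm7 were chosen after the values were seen. RLE, upper-quartile and library size scaling, scaling without mitochondrially encoded and main enamel matrix genes, other filters, other thresholds, wider membership of the groups and leaving out each control were also run. The values of 1 further marker list are not reported here.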

Additional observations from a re-analysis of the deposited data

How the results depend on the processing

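With 1 library per genotype, differences between genotypes cannot be told apart from differences between libraries. The p-values rest on how far the controls lie apart, with the error shared across genes. No paired analysis was possible because each genotype had 1 library. Leaving out a control left no residual degrees of freedom, so those values have no test. The 14 genes called became 50 with RLE scaling, 138 with upper-quartile scaling, 6 with library size scaling, 907 with no filter, 6 with a mean of at least 50 counts, 1987 with DESeq2 and 1811 at an adjusted p under 0.05. Lower and higher calls numbered 0 and 14 in the first fit, 13 and 125 with upper-quartile scaling, 220 and 687 with no filter, 880 and 1107 with DESeq2, and 539 and 1272 at an adjusted p under 0.05. The 0 members called became 5 with no filter (Aurkb, Mcm3, Mcm5, Mcm6 and Rrm2, and of the further genes named Uhrf1 and Nusap1), 20 with DESeq2 and 16 at an adjusted p under 0.05. Between 42 and 44 members were below both controls, or below the control kept, with each scaling, each filter, DESeq2 and each control left out. The median log2 fold change of all tested genes moved from −0.01 to 0.12 with upper-quartile scaling and to 0.25 with library size scaling. The S phase median of −1.39 became −1.13 with library size scaling, −1.42 without Stim1 HT, −1.21 without Stim1 Ctrl and −1.16 without Mcm2 to Mcm7. The mitosis median of −1.21 became −0.94 with library size scaling, −1.39 without Stim1 HT and −1.05 without Stim1 Ctrl. S phase minus mitosis, −0.18, became −0.0296 without Stim1 HT, −0.16 without Stim1 Ctrl, and 0.0452 without Mcm2 to Mcm7, a removal chosen after seeing the data. With wider membership of the groups it was −0.17. Log2 fold changes that turned sign were those of Gins1 (−0.06; 0.0581 upper-quartile, 0.19 library size, 0.0436 with a mean of at least 50 counts, 0.21 without Stim1 HT, −0.289 without Stim1 Ctrl), Tyms (−0.17; 0.0878 library size) and Ccnd1 (−0.07; 0.0627 upper-quartile, 0.20 library size, 0.0422 with a mean of at least 50 counts, −0.206 without Stim1 HT, 0.0870 without Stim1 Ctrl). Those of Cdkn1b (−0.12; 0.0129 upper-quartile, 0.14 library size), Cdkn2d (−0.19; 0.0603 library size), Cdkn2b (0.18; 0.522 without Stim1 HT, −0.10 without Stim1 Ctrl), Rpa3 (0.10; 0.671 without Stim1 HT, −0.31 without Stim1 Ctrl) and Ccnd2 (0.12; −0.12 without Stim1 HT, 0.398 without Stim1 Ctrl) turned as well. Where scaling moved a value, the shift of all genes shows by how much; for the other moves the cause was not tested.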

Other observations

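Regulators of G1 were less uniform than the members. Of 20 such genes, 12 were below both controls in Stim1 cKO, against 42.1% of tested genes, and 5 above both, against 8159 of 18702, with a median log2 fold change of −0.46. None passed edgeR's test. At an unadjusted p under 0.05, 6 were lower, against 13.4% of tested genes, and 1 was higher, against 3460 of 18702. DESeq2 called 2 of the 20 lower, against 4.71% of tested genes. E2f2, an activator like E2f1, read 15.2 CPM (Stim1 cKO), 41.7 CPM (Stim1 HT) and 54.9 CPM (Stim1 Ctrl) (log2 fold change −1.67). E2f8, a repressor of the same family, read 8.51, 14.9 and 28.8 CPM (−1.36). The D cyclins parted. Ccnd3 read 96.7, 249 and 289 CPM (−1.47), far below both controls, whereas Ccnd2 read 303, 229.5 and 328 CPM, between them, and its log2 fold change of 0.12 became −0.12 without Stim1 HT. Their partner kinases also parted. Cdk4 read 103, 190.4 and 167 CPM (−0.79; unadjusted p = 0.0395), below both controls. Cdk6 read 20.2 CPM (Stim1 cKO), 3.66 CPM (Stim1 HT) and 6.33 CPM (Stim1 Ctrl) (2.01; adjusted p = 0.0601 in edgeR's quasi-likelihood test), the only gene of the list higher at an unadjusted p under 0.05. Lin52 (0.59) and Lin37 (0.44), subunits of MuvB, were also above both controls.

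The CDK inhibitors hold cells out of the cycle. Of 7 inhibitors, 5 were below both controls in Stim1 cKO, against 42.1% of tested genes, and 1 above both, against 8159 of 18702, with a median log2 fold change of −0.19. None passed edgeR's test, and 2 were lower at an unadjusted p under 0.05, against 13.4% of tested genes, both also called by DESeq2, against 4.71%. Cdkn1c, p57, read 168 CPM (Stim1 cKO), 609 CPM (Stim1 HT) and 749 CPM (Stim1 Ctrl) (log2 fold change −2.02). Cdkn2c, p18, read 14.1, 38.9 and 46.0 CPM (−1.59). Cdkn1a, p21, read 164, 266 and 279 CPM (−0.73). All 3 were lowest in Stim1 cKO. Cdkn1b, p27, was close across libraries at 68.1, 69.3 and 78.3 CPM, and its log2 fold change of −0.12 became 0.14 under library size scaling. Cdkn2d read 26.2, 32.6 and 27.4 CPM (−0.19, 0.06 under library size scaling), and Cdkn2b read 7.64, 8.17 and 5.32 CPM (0.18, −0.10 without Stim1 Ctrl). Cdkn2a was near 0, at 0.620, 0.355 and 0.466 CPM.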
